A study of Mus musculus with 16 samples.

Results

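Sterol and fatty acid synthesis genes of the lumbar spinal cord were followed on 16 whole mouse genome arrays. They comprised 33 of the 27962 gene names on the array and 65 of its 41174 probes, found by an exact match of the gene name among the noncontrol probes. The genes were chosen by measured values of these arrays, namely the difference between 40 and 80 days of age, so that difference is described below without a test, while the comparisons between genotypes at 1 age were tested. The samples were whole lumbar cords of male mice on a B6SJL background, 4 arrays for each of 4 groups. These were SOD1G93A mice of 40 days, SOD1G93A mice of 80 days, and wild-type mice (labeled NonTg) of either age. SOD1G93A mice carry several copies of a human SOD1 gene with a mutation of familial amyotrophic lateral sclerosis, wild-type mice carry none, and both ages precede the symptoms. On every array the cord RNA was labeled with Cy3 and hybridized beside a Cy5-labeled reference pool of neonatal heart, kidney and liver RNA of both genotypes. Values are log2 ratios of Cy3 to Cy5, so a value of 0 is a signal equal to that of the pool, and a difference of 1 between groups is a 2-fold difference.

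Cholesterol is made from acetyl-CoA by a chain of enzymes that runs through mevalonate, isoprenoid units, squalene and lanosterol. Fatty acids are made from the same precursor, elongated and desaturated by enzymes such as *Fasn*, *Elovl6* and *Scd2*. The transcription factors SREBP-2 (gene *Srebf2*), which is active when cell sterols are low, and SREBP-1 (gene *Srebf1*) raise transcription of these genes. Oxysterols and liver X receptors turn on genes of sterol export such as *Abca1*. The nervous system makes its own cholesterol because lipoproteins hardly cross the blood-brain barrier, and oligodendrocytes need much of it while they build myelin.

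Promoters of these genes are shown first because many of the genes were lower together at 80 days. The 250 bases upstream of the annotated start were taken from RefSeq on build GRCm38.p6, where 25 of the 33 genes had an entry, in 32 windows (*Sc4mol* under its present name, Msmo1). Each window was searched on both strands for a sterol regulatory element, TCACNCCAC, for the CCAAT box bound by NF-Y, and for the E-box CACGTG. The sterol element was found in 1 member, *Hmgcs1*, at 137 bases upstream of the start. This was 3.12% of the 32 windows, against 1.05% of 32851 windows of all genes. CCAAT stood in 17 of the 25 genes and 56.2% of their windows, against 33.8% of all windows, and CACGTG in 5 genes and 15.6% of windows, against 6.02%. In 75 windows of other genes of the same pathways, described below, the shares were 4%, 53.3% and 8% in the same order. The share of CCAAT was thus not particular to the 33 genes. Capitals below mark these motifs as they read on the printed strand, where ATTGG is a CCAAT box on the other strand. *Hmgcs1* had the largest age difference of the synthesis enzymes, *Sc4mol* and *Idi1* are further sterol enzymes that were lower at 80 days on every array, and *Fasn* is the gene whose genotype difference at 80 days was called under every alternative run. The windows lie at chr13:119690101-119690350 (plus strand), chr8:64733579-64733828 (minus strand), chr13:8885356-8885605 (plus strand) and chr11:120824548-120824797 (minus strand), and each is written 5′ to 3′ on the strand of its gene.
*Hmgcs1*: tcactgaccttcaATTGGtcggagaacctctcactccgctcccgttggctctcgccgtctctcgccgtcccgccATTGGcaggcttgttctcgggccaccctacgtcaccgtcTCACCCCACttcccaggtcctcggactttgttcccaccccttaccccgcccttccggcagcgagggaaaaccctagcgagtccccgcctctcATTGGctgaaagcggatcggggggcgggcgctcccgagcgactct
*Sc4mol*: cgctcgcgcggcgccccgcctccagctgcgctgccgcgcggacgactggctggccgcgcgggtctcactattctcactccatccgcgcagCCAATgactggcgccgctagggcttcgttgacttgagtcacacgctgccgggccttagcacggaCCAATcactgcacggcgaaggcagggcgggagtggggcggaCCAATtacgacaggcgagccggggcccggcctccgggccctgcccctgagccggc
*Idi1*: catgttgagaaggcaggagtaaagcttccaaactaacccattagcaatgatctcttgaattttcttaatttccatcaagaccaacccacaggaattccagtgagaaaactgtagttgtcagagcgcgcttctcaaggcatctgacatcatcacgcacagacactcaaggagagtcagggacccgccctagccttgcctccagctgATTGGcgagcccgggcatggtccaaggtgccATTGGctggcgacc
*Fasn*: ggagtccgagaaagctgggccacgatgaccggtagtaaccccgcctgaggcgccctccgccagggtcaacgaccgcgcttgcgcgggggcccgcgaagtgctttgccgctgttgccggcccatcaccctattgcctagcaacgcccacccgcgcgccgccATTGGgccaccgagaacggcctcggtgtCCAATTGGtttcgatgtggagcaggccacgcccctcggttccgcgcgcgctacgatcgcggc
The *Hmgcs1* window holds CCAAT boxes on the other strand at 237, 176 and 45 bases upstream of the start, to either side of the sterol element. In *Sc4mol* all 3 boxes read CCAAT on the printed strand, and in *Idi1* both lie within 45 bases of the start on the other strand. *Fasn* holds 3, of which a forward and a reverse box share letters at 62 and 59 bases upstream. A match describes the letters of the window and was not tested as a binding site.

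Between 46.1% and 55.3% of probes were well above background in the Cy3 channel of an array, and 0 probes of the 33 genes were saturated. On all 16 arrays 29 of the 33 genes had a ratio above 0, the exceptions being *Abca1*, *Ch25h*, *Lpl* and *Stard4*. Each slide held 1 array of every group, and each group lay at its own position on all 4 slides, so position on the slide and group cannot be told apart. All neuronal (6), astrocyte (8) and myelin (11) markers found on the array were bright enough to be tested, as the tissue label asks. Lists of cell markers stood apart on a few arrays. The microglia score, the median deviation of 8 markers from their mean over the 16 arrays, was 0.60 on replicate 3 of wild-type mice of 80 days and 0.92 on replicate 4 of SOD1G93A mice of 80 days, and lay between -0.24 and 0.09 on the other 14. Replicate 4 of wild-type mice of 40 days had the lowest scores of Schwann cell (-0.85) and meningeal markers (-1.21). Next came replicate 3 of SOD1G93A mice of 40 days (-0.74 and -1.13). For several results that rest on these arrays, values without them are also given.

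Enzymes of sterol synthesis were lower at 80 days than at 40 days in both genotypes. Over the 16 enzymes the median difference, 80 minus 40 days, was -0.43 in wild-type and -0.39 in SOD1G93A mice, while the median over all genes tested was 0.02 and 0.01. The difference was below 0 for 15 of the 16 enzymes in wild-type and 16 of 16 in SOD1G93A mice. All 80-day arrays lay below all 40-day arrays for 8 of the enzymes in wild-type mice and for 10 in SOD1G93A mice. Of all genes tested, 4.65% did so in wild-type and 6.24% in SOD1G93A mice, which is printed as background only, since the age difference chose the genes. In whole cord, fewer cells of a type and less RNA per cell cannot be told apart.

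*Hmgcs1*, the synthase that feeds the mevalonate pathway, had log2 ratios of 2.80, 2.73, 2.77 and 2.75 on the wild-type arrays of 40 days and 1.63, 1.75, 1.36 and 2.02 on those of 80 days. In SOD1G93A mice its ratios were 2.58, 2.79, 2.63 and 2.82 at 40 days and 1.83, 1.66, 1.59 and 1.56 at 80 days. The ages did not overlap in either genotype, and the difference was -1.07 (SE 0.11) in wild-type and -1.04 (SE 0.11) in SOD1G93A mice, or 2.10-fold and 2.06-fold lower. A dimmer probe of *Hmgcs1* gave -0.60 and -0.63, the same direction at a smaller size. The files place both probes on an unassigned contig of the older build mm7.

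*Idi1*, the isomerase that makes the second isoprenoid unit, read 1.48, 1.56, 1.58 and 1.57 in wild-type mice of 40 days and 0.91, 1.03, 0.70 and 1.09 at 80 days. Its values in SOD1G93A mice were 1.47, 1.58, 1.55 and 1.47 at 40 days and 0.94, 0.85, 0.94 and 0.80 at 80 days. The differences of -0.61 and -0.64 (SE 0.071 for either) were close in size between the genotypes. The deposited coordinates place both *Idi1* probes on chromosome 2 of build mm7, whereas the promoter window above lies on chromosome 13. Their identity as *Idi1* therefore rests on the gene name given for the array. Squalene epoxidase, *Sqle*, read 2.07, 2.09, 2.08 and 1.98 and then 1.36, 1.55, 1.20 and 1.62 in wild-type mice. The SOD1G93A arrays gave 2.01, 2.15, 2.07 and 2.03 at 40 days and 1.49, 1.47, 1.24 and 1.28 at 80 days for *Sqle*. Again no array of 80 days reached one of 40 days, with differences of -0.62 and -0.69. The other enzymes before *Lss* had smaller differences. *Fdps*, which joins isoprenoid units, was at -0.45 in wild-type and -0.30 in SOD1G93A mice, without overlap in SOD1G93A mice, and *Pmvk*, a kinase of mevalonate, was at -0.11 and -0.29, also without overlap in SOD1G93A mice. *Mvd* (-0.41 and -0.25), *Mvk* (-0.21 and -0.041) and the squalene synthase *Fdft1* (-0.15 and -0.087) overlapped between the ages in both genotypes. Without the 2 arrays of high microglia score *Mvk* was at -0.10 and 0.033, *Pmvk* in wild-type mice at -0.056, and *Mvd* and *Fdft1* in SOD1G93A mice at -0.16 and 0.00055. *Acat2*, which makes acetoacetyl-CoA at the start of the chain, differed from these with 0.17 in wild-type mice, and -0.025 in SOD1G93A mice; without normalization within arrays its wild-type value was -0.016.

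From *Lss*, which makes lanosterol, onward all 7 enzymes were lower at 80 days in both genotypes. Their medians were -0.49 and -0.48. *Lss*, the cyclase that closes the sterol rings, read 1.53, 1.40, 1.24 and 1.48 in wild-type mice of 40 days and 0.66, 0.92, 0.51 and 0.80 at 80 days. Its SOD1G93A values were 1.36, 1.55, 1.47 and 1.13 at 40 days and 0.99, 0.77, 0.72 and 0.85 at 80 days. The genotypes thus gave differences of -0.69 and -0.54, and the lowest value of 80 days was on wild-type replicate 3. The demethylase *Cyp51* had 2.12, 2.11, 2.19 and 2.29 against 1.36, 1.63, 1.27 and 1.69 in wild-type mice. For *Cyp51* in SOD1G93A mice the values were 2.20, 2.16, 2.04 and 2.12 against 1.56, 1.56, 1.64 and 1.49. Its 3 probes gave -0.69 to -0.52 in wild-type and -0.59 to -0.56 in SOD1G93A mice. *Dhcr7*, which catalyzes the last step to cholesterol, read 1.98, 1.96, 1.90 and 2.14 and then 1.42, 1.41, 1.13 and 1.60 in wild-type mice. On SOD1G93A arrays *Dhcr7* was 1.86, 1.92, 2.02 and 1.90 at 40 days and 1.48, 1.44, 1.31 and 1.36 at 80 days. A dimmer *Dhcr7* probe gave -0.42 in wild-type and -0.0029 in SOD1G93A mice, so its probes did not give the same size in SOD1G93A mice. *Sc4mol*, the methyl sterol oxidase, was lower, at -0.49 and -0.48, without overlap in either genotype. *Nsdhl* (-0.42 and -0.31) did not overlap in wild-type mice, and *Hsd17b7* (-0.34 and -0.47) did not overlap in SOD1G93A mice. *Sc5d*, the desaturase before *Dhcr7*, had -0.23 and -0.27 on its brightest probe and -0.80 and -0.90 on another.

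**Figure D1:**
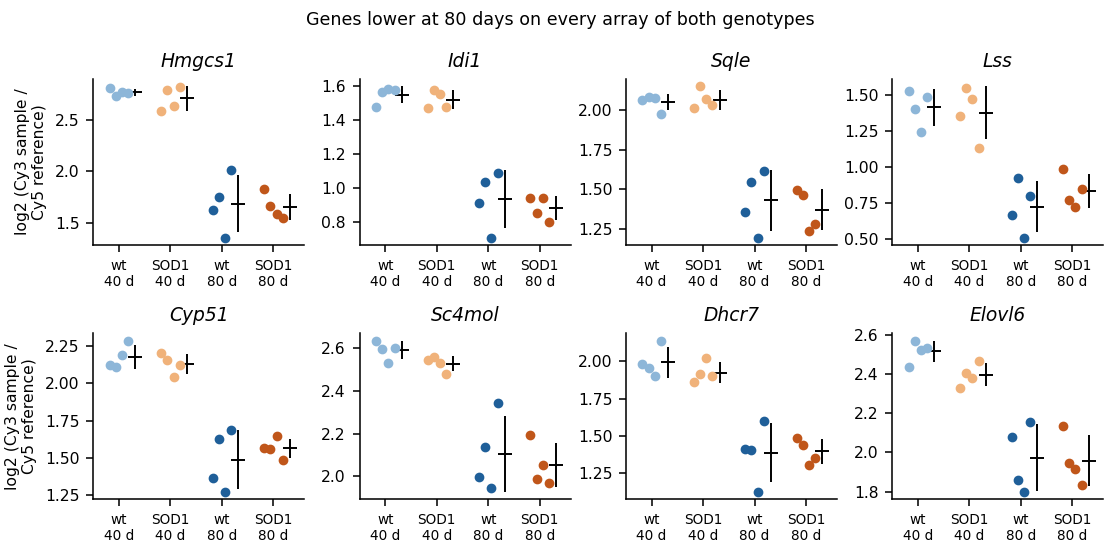
Log2 ratio of the Cy3 sample to the Cy5 reference (vertical axes) on each array for the 8 genes whose 80-day arrays all lay below their 40-day arrays in both genotypes; wt is wild-type and SOD1 is SOD1G93A, points within a group run from replicate 1 to 4, and the bar beside them is the mean with SD, n = 4. For *Hmgcs1* the 40-day points lie between 2.58 and 2.82 and the 80-day points between 1.36 and 2.02.

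Genes of fatty acid synthesis were less uniform. Their median difference was -0.23 in wild-type mice, with 9 of 9 below 0, and -0.14 in SOD1G93A mice, with 7 of 9 below 0. Without the 2 arrays of high microglia score the medians were -0.15 and -0.12. The elongase *Elovl6* was the one of the 9 that did not overlap in either genotype. It read 2.44, 2.57, 2.52 and 2.53 in wild-type mice of 40 days and 2.08, 1.86, 1.80 and 2.16 at 80 days, and in SOD1G93A mice 2.33, 2.41, 2.38 and 2.47 at 40 days and 2.14, 1.95, 1.92 and 1.83 at 80 days. *Acly*, which supplies cytosolic acetyl-CoA, and fatty acid synthase, *Fasn*, were lower without overlap in wild-type mice, at -0.31 and -0.29, while in SOD1G93A mice their differences were -0.11 and -0.02. Acetyl-CoA carboxylase, *Acaca*, and the desaturases *Scd1* and *Scd2* were lower without overlap in SOD1G93A mice, at -0.26, -0.29 and -0.28, and overlapped in wild-type mice, where they were at -0.11, -0.21 and -0.23. *Acss2*, which activates acetate, was at -0.25 in wild-type and -0.14 in SOD1G93A mice. The desaturases of polyunsaturated fatty acids were near 0 in wild-type mice, with -0.051 for *Fads1* and -0.052 for *Fads2*, and above 0 in SOD1G93A mice, with 0.22 and 0.11. The SOD1G93A value of *Fads1* was 0.13 without replicate 3 of 80 days, and that of *Fads2* was -0.0026 in the Cy3 channel alone. Wild-type values of *Fasn*, *Scd1* and *Acss2* rested in part on replicate 4 of 40 days, without which they were -0.22, -0.13 and -0.14. Without replicate 3 of 80 days, an array of high microglia score, *Scd1* was at -0.094.

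Of the 4 regulators and carriers, *Srebf1* alone did not overlap between the ages in both genotypes, and it was higher at 80 days. *Srebf2* had a difference of -0.13 in wild-type and 0.037 in SOD1G93A mice, and *Insig1*, which holds SREBPs in the endoplasmic reticulum, -0.052 and 0.01. Both overlapped between the ages on these probes. Their other tested probes were below 0 in both genotypes, at -0.30 and -0.17 in wild-type and -0.13 and -0.22 in SOD1G93A mice for *Srebf2*, and at -0.18 and -0.17 for *Insig1*, which on that probe did not overlap in SOD1G93A mice. Without the 2 arrays of high microglia score the wild-type value of the main *Insig1* probe was 0.077. With single arrays left out, the wild-type value of the main *Srebf2* probe ran from -0.21 to -0.0081. *Srebf1* read 0.43, 0.44, 0.38 and 0.45 in wild-type mice of 40 days and 0.58, 0.76, 0.83 and 0.55 at 80 days. In SOD1G93A mice *Srebf1* read 0.37, 0.42, 0.36 and 0.24 at 40 days and 0.86, 0.78, 0.63 and 0.95 at 80 days. The ages did not overlap, with differences of 0.25 (SE 0.074) and 0.46 (SE 0.074). All 80-day arrays lay above all 40-day arrays in 2 of the 33 genes in wild-type mice (*Srebf1* and *Ch25h*) and in 3 in SOD1G93A mice (these and *Abca1*), beside 3.33% and 6.84% of all genes tested. At 40 days *Ch25h* was well above background on 0 of 4 wild-type and 1 of 4 SOD1G93A arrays. Its part in these counts therefore sets detected signal against mostly undetected signal. *Stard4*, a carrier of sterols between membranes, was at 0.037 in wild-type and -0.26 in SOD1G93A mice, and the latter was -0.076 without replicate 3 of 80 days.

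Genes of oxysterol formation, export and lipid uptake had medians of 0.29 in wild-type and 0.30 in SOD1G93A mice, or 0.18 and 0.22 without the 2 arrays of high microglia score. *Ch25h* makes 25-hydroxycholesterol, an oxysterol that restrains SREBPs. Its log2 ratio was -0.01, -0.16, 0.01 and -0.48 in wild-type mice of 40 days, where 0 of 4 arrays had it well above background, and 0.23, 0.18, 2.00 and 0.15 at 80 days, where all 4 did. On the Cy3 scale the measured signal was 1.64-fold higher at 80 days in wild-type mice. This size is uncertain, since the 40-day signal was not well above background. Without replicate 3 of 80 days the measured difference was 1.27-fold. SOD1G93A mice had -0.12, -0.12, -0.06 and 0.06 at 40 days, well above background on 1 array, and 0.50, 0.50, 0.84 and 1.88 at 80 days. The fitted difference was 0.99 (SE 0.35), a size that is uncertain because the 40-day signal was mostly not well above background. No such value on the Cy3 scale is given for SOD1G93A mice. The highest value of each genotype was on the array with the high microglia score, and without both arrays the differences in the log2 ratio were 0.35 and 0.67. *Abca1*, the exporter of cholesterol to lipoproteins, was also highest on these arrays, with -0.83, -0.55, -0.28 and -0.85 in wild-type and -0.71, -0.80, -0.83 and -0.36 in SOD1G93A mice of 80 days. Its differences of 0.22 and 0.31 were 0.11 and 0.20 without them. The part of microglial RNA in either gene was not tested. *Apoe*, the main apolipoprotein of the nervous system, had 0.35 and 0.29 with overlap. *Lpl*, which releases fatty acids from lipoproteins, had a large SE (0.28) beside differences of -0.078 and 0.15. Without the 2 arrays it was at -0.24 and -0.26, so its direction in SOD1G93A mice turned on replicate 4 of 80 days.

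**Figure D2:**
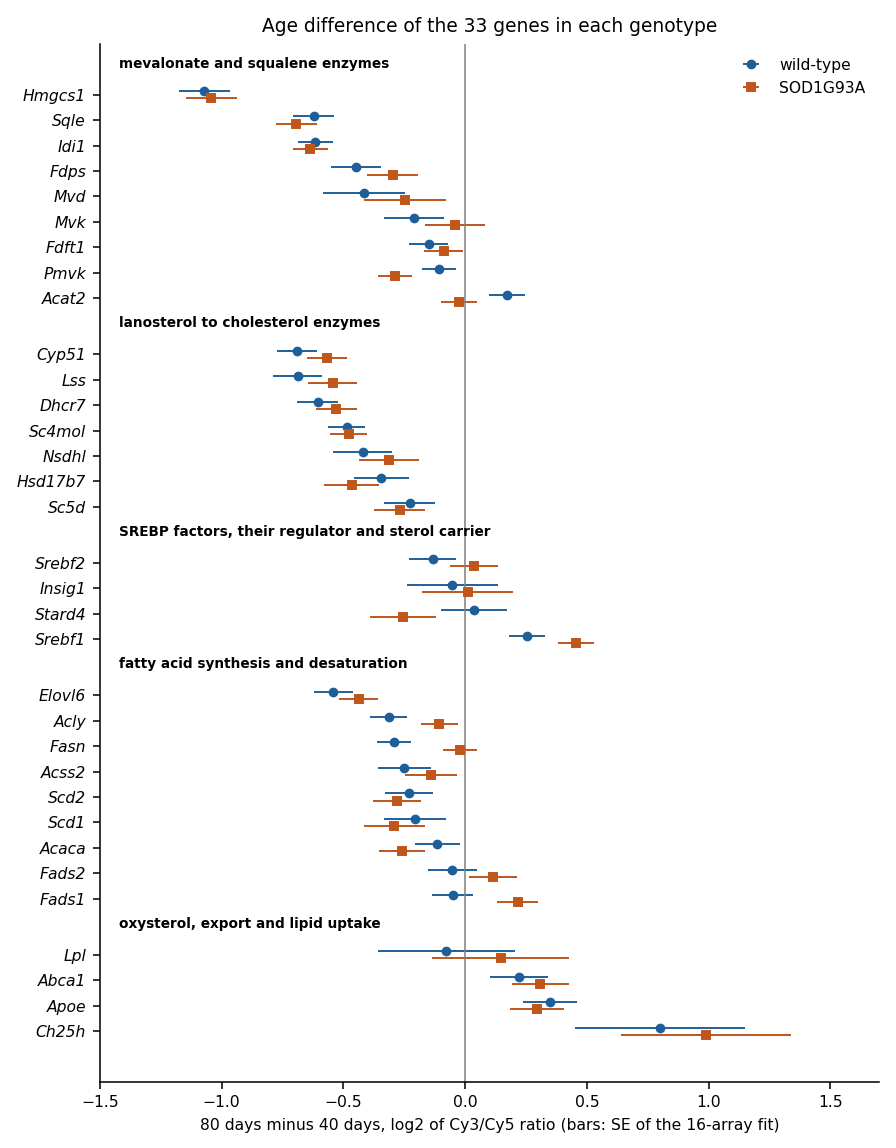
Difference in the log2 ratio, 80 days minus 40 days, of each of the 33 genes by role (horizontal axis), with circles for wild-type and squares for SOD1G93A mice and bars for the SE of the fit to 16 arrays. Sterol enzymes lie left of 0 apart from *Acat2* in wild-type mice, while *Srebf1*, *Abca1*, *Apoe* and *Ch25h* lie right of 0 in both genotypes.

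Over all 33 genes the median difference was -0.23 in wild-type and -0.26 in SOD1G93A mice, with 27 and 24 genes below 0. Of the 33, 22 were lower in both genotypes, 4 higher in both and 7 opposite. The 80-day arrays lay below the 40-day arrays in 11 genes in wild-type and 14 in SOD1G93A mice, and in 8 in both, namely *Hmgcs1*, *Sqle*, *Idi1*, *Cyp51*, *Lss*, *Dhcr7*, *Sc4mol* and *Elovl6*. Compared within slides, where each 80-day array was set against the 40-day array beside it, the median over the sterol enzymes ran from -0.62 to -0.38 in wild-type and from -0.44 to -0.32 in SOD1G93A mice and was below 0 on 4 of 4 slides. Among the 16 genes with several tested probes, 12 had 1 sign on all probes in both genotypes, the exceptions being *Acss2*, *Insig1*, *Lpl* and *Srebf2*. The Cy5 reference signal of the 33 genes differed between ages by -0.18 to 0.13 on the log2 scale beside wild-type and -0.12 to 0.14 beside SOD1G93A samples.

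Several markers of oligodendrocytes were also lower at 80 days, in lists chosen with earlier results of these data known. Of 11 tested genes of mature oligodendrocytes and myelin, 6 were lower at 80 days in wild-type and 6 in SOD1G93A mice by limma at an unadjusted p under 0.05, and 0 were higher. After Benjamini-Hochberg adjustment 3 were called in each. They included *Mal*, a myelin proteolipid, at -0.92 (adjusted p = 8.5e-05) in wild-type and -0.77 (adjusted p = 0.000217) in SOD1G93A mice, and *Cldn11*, the claudin of myelin tight junctions, at -0.60 (adjusted p = 0.00323) and -0.93 (adjusted p = 0.000181). *Mbp* and *Cnp1* were at 0.072 and -0.05 in wild-type and -0.16 and 0.091 in SOD1G93A mice and did not pass. Of 10 genes of precursors and newly formed oligodendrocytes, 7 were lower in wild-type and 4 in SOD1G93A mice, led by *Enpp6* of newly formed cells at -0.78 and -0.92 (adjusted p = 0.00256 and 0.000828). At the same unadjusted threshold 15.6% of all genes tested were called with age in wild-type and 17.8% in SOD1G93A mice. The score of the myelin list ran from 0.021 to 0.22 in wild-type and 0.073 to 0.36 in SOD1G93A mice of 40 days, and from -0.32 to -0.055 and -0.17 to -0.053 at 80 days. The sterol enzymes had scores of 0.18 to 0.33 and 0.15 to 0.28 at 40 days and -0.50 to -0.10 and -0.29 to -0.11 at 80 days, without overlap between the ages in either list. Wild-type replicate 3 of 80 days was lowest in both, and the part of oligodendrocyte content or state in the sterol genes was not tested. Markers of fat were at or near background, with 1 of 7 tested, *Fabp4* (0.0096 and 0.0022).

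**Figure D3:**
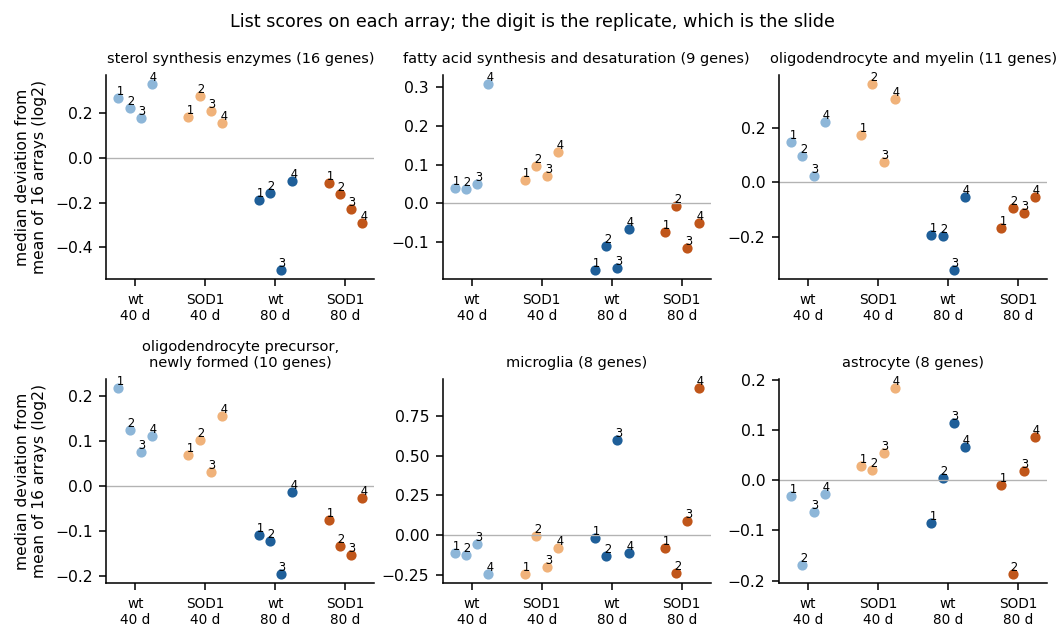
Scores of 6 gene lists on each array (vertical axes, median deviation in log2 ratio from the mean of the 16 arrays), with wt for wild-type, SOD1 for SOD1G93A and the digit for the replicate. Scores of the sterol enzymes, of myelin and of precursor genes are above 0 at 40 days and below 0 at 80 days on all arrays, and 2 arrays of 80 days stand above the rest in the microglia score (0.60 and 0.92).

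Whether the genotypes differed was tested within each age. At 40 days 1 of 32 tested genes was called by limma at an unadjusted p under 0.05, beside 3.9% of all genes tested. This was *Stard4*, with -0.29, -0.34, -0.14 and -0.17 in wild-type and 0.04, -0.04, -0.11 and -0.04 in SOD1G93A mice. The groups did not overlap, and the difference, SOD1G93A minus wild-type, was 0.20 (SE 0.063, p = 0.0103, exact permutation p = 0.0286, the smallest that 4 against 4 arrays can give). It was not called when the spread came from all 16 arrays, nor without normalization within arrays, where it was 0.039. *Acly* did not overlap either, at -0.10, but did not pass (p = 0.0614, exact permutation p = 0.0286). Among sterol enzymes 0 of 16 were called at 40 days, with differences of -0.074 to 0.15. Beside this, 3 of 8 astrocyte and 3 of 11 myelin markers were higher in SOD1G93A mice at 40 days at the same threshold. Meningeal markers had a median of -0.69 (7 of 7 below 0) and Schwann cell markers of -0.65 (6 of 6 below 0). Of either list 0 were called.

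At 80 days 4 of 33 genes were called, all higher in SOD1G93A mice, and all 4 belonged to the 9 genes of fatty acid synthesis and desaturation. Of all genes tested, 6.47% were called and 3.15% were called as higher. *Fasn* read 1.22, 1.12, 1.27 and 1.24 in wild-type and 1.46, 1.37, 1.45 and 1.51 in SOD1G93A mice. The groups did not overlap, with a difference of 0.23 (SE 0.06, p = 0.00303, exact permutation p = 0.0286), and *Fasn* was called under all 24 alternatives that could be run (0.15 to 0.32). Its dimmer probe gave 0.075 (p = 0.438, exact permutation p = 0.486). *Fads1*, the delta-5 desaturase, read 2.18, 2.12, 2.07 and 2.20 in wild-type and 2.31, 2.44, 2.65 and 2.19 in SOD1G93A mice. SOD1G93A replicate 4 lay within the wild-type values, and the difference was 0.26 (SE 0.094, p = 0.0207, exact permutation p = 0.0571). It was not called under 4 of 24 alternatives, namely without SOD1G93A replicate 3 (0.17) and without wild-type replicate 3 (0.23), without the reset of bright backgrounds (0.23) and in the Cy3 channel alone (0.18). *Fads2*, the delta-6 desaturase, had 1.46, 1.09, 1.12 and 1.14 in wild-type and 1.38, 1.35, 1.48 and 1.40 in SOD1G93A mice. Wild-type replicate 1 stood among the SOD1G93A values, and the difference of 0.20 (p = 0.046, exact permutation p = 0.114) was not called under 16 of 24 alternatives. *Acss2* read 0.67, 0.57, 0.68 and 0.65 and 0.66, 0.84, 1.10 and 0.79, a difference of 0.20 (p = 0.0444, exact permutation p = 0.0857) that was not called under 11 of 24. Another of its probes gave 0.28 (p = 0.0187, exact permutation p = 0.0286) and the remaining one -0.063 (exact permutation p = 0.571). Beside these, 2 of 11 myelin markers were higher in SOD1G93A mice at 80 days, *Mog* by 0.27 (exact permutation p = 0.0857) and *Cnp1* by 0.24 (exact permutation p = 0.0571), and their part in the lipogenic genes was not tested.

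Of the 16 sterol enzymes 0 were called at 80 days, with differences of -0.11 to 0.19 and SEs of 0.07 to 0.17 on the log2 scale. A dimmer probe of *Dhcr7* gave 0.32 (p = 0.0166, exact permutation p = 0.0571), while the brighter one gave 0.0083 (p = 0.933, exact permutation p = 0.943). Without the 2 arrays of high microglia score, *Fasn* (0.23) and *Fads1* (0.31) were called, beside 8.72% of all genes tested. So was *Ch25h* at 0.43, now without overlap, which with all arrays was at 0.29 (p = 0.517, exact permutation p = 0.486). *Sc5d* was then called as lower (-0.22), and *Fads2* (0.17) and *Acss2* (0.23) were not called.

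**Figure D4:**
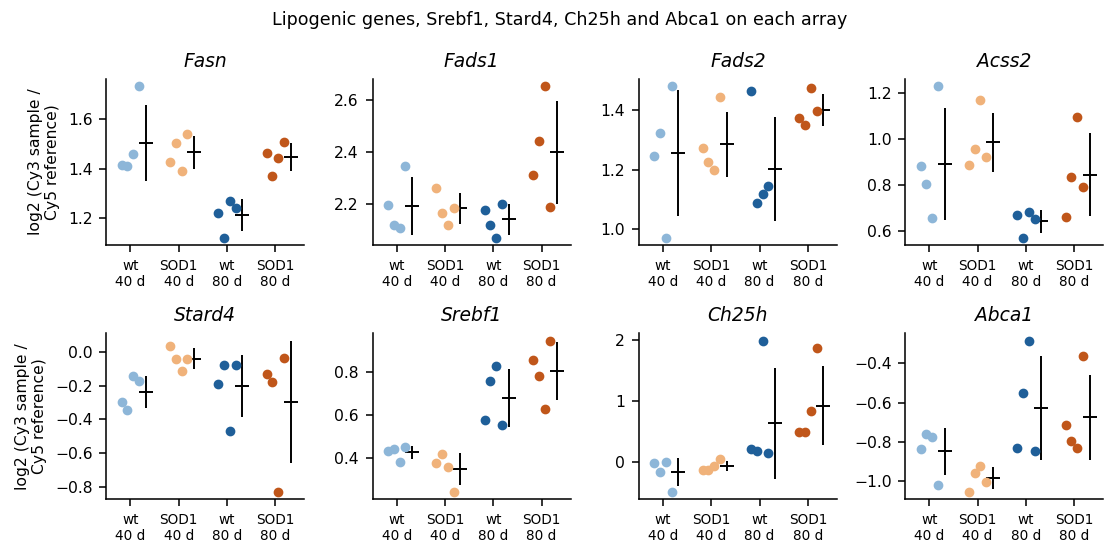
Log2 ratio of the Cy3 sample to the Cy5 reference (vertical axes) on each array for 8 genes; wt is wild-type and SOD1 is SOD1G93A, points within a group run from replicate 1 to 4, and the bar is the mean with SD, n = 4. *Fasn* at 80 days lies between 1.12 and 1.27 in wild-type and between 1.37 and 1.51 in SOD1G93A mice, and the highest *Ch25h* values of 80 days are 2.00 and 1.88.

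The age differences of the genotypes, which both entered the choice of genes, are set beside each other without a test. The age difference of SOD1G93A mice minus that of wild-type mice was 0.27 (SE 0.10) for *Fasn*, and 0.20 to 0.50 under 29 alternatives. On this probe the ages differed by -0.29 in wild-type and -0.02 in SOD1G93A mice. On the dimmer *Fasn* probe they differed by -0.19 and -0.054, so the genotypes stood closer together there. *Fads1* had 0.27 (SE 0.12). Sterol enzymes had values of -0.20 to 0.17 with SEs of 0.10 to 0.24. After Benjamini-Hochberg adjustment over all probes, 0 probes passed by limma between genotypes at 40 or at 80 days (smallest adjusted p 0.998 and 0.0729), where 953 and 1481 probes had an unadjusted p under 0.05.

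Other genes of the same pathways, outside the 33, were tested with age. Their list was chosen with earlier results of these data known, so it is no independent check of the age difference above. Of 64 listed genes 60 were on the array and 57 were tested. In wild-type mice 18 were called, 16 of them lower at 80 days and 2 higher, and 9 passed adjustment, all lower. In SOD1G93A mice 21 were called, 16 lower and 5 higher, and 9 passed adjustment, all lower. The share called was 31.6% in wild-type and 36.8% in SOD1G93A mice, beside 15.6% and 17.8% of all genes tested. Of all genes tested, 259 of 15025 in wild-type and 207 of 14939 in SOD1G93A mice passed adjustment. Without normalization within arrays the SOD1G93A split was 6 lower and 7 higher, with 14.1% of all genes tested called. Of the genes named by size, *Tm7sf2*, a sterol reductase, fell by 0.59 and 0.52 and *Ebp*, a sterol isomerase, by 0.24 and 0.32 (adjusted p at most 0.0475). *Ugt8a*, which makes galactosylceramide, fell by 0.62 (adjusted p = 0.00493) and 0.85 (adjusted p = 0.000519), and *Gal3st1*, which sulfates it, by 0.64 (adjusted p = 0.00256) and 0.45 (adjusted p = 0.0298). *Fa2h*, the fatty acid hydroxylase of myelin lipids, fell by 0.53 and 0.71 (adjusted p = 0.0134 and 0.00212), although its wild-type value was 0.0046 with the signals as processed by the scanner software. Among elongases *Elovl1* fell by 0.57 and 0.41 (adjusted p = 0.000382 and 0.00487), and *Elovl7* by 0.65 and 0.66 at an unadjusted p of 0.019 and 0.0184, the former -0.46 and no longer called without the 2 arrays of high microglia score. The acyl-CoA synthetase *Acsl1* fell by 0.46 and 0.32 (adjusted p = 0.00407 and 0.0442). The ceramide synthase *Lass2* fell by 0.45 and 0.31 (adjusted p = 0.000677 and 0.0129), and *Acsl3*, another acyl-CoA synthetase, by 0.37 and 0.27, at unadjusted p only. *Fabp7*, a fatty acid binding protein of glia, fell by 0.36 and 0.44, at unadjusted p only. Higher at 80 days were *Acacb* and *Clu* in both genotypes, and *Lrp1*, *Nr1h2* and *Scap* in SOD1G93A mice, by at most 0.24 and at unadjusted p only.

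Of these genes *Npc1*, *Scap* and *Ggps1* had a called interaction between genotype and age, 3 of 57 by limma at an unadjusted p under 0.05, beside 5.81% of all genes tested and 0 probes after adjustment (smallest adjusted p 0.496). Without normalization within arrays 16 were called, all above 0, beside 20.8% of all genes tested, whose median interaction was then 0.21. With processed signals 7 were called, of which 6 were below 0, beside 10.1% of all genes tested, whose median was then -0.097. Without wild-type replicate 3 of 80 days 7 were called, without SOD1G93A replicate 3 of 80 days 6, and without SOD1G93A replicate 2 of 40 days 5. The interaction of *Npc1* kept its call under all 31 alternatives, while those of *Scap* and *Ggps1* each lost it under 1 of 31. *Npc1*, which exports cholesterol from lysosomes, fell with age in wild-type mice by 0.53 (adjusted p = 0.0204) and was at -0.031 in SOD1G93A mice, an interaction of 0.50 (SE 0.15, p = 0.00471, permutation p = 0.0151). *Scap*, the escort of SREBPs to the Golgi, had an interaction of 0.28 (p = 0.0127, permutation p = 0.0359). *Ggps1*, which makes geranylgeranyl diphosphate, was at 0.11 with age in wild-type mice and fell by 0.32 in SOD1G93A mice at unadjusted p only, with an interaction of -0.43 (p = 0.00267, permutation p = 0.00816), and the mean over its probes at 80 days was -0.10. Between genotypes at 80 days 4 of 57 were called by limma, beside 6.47% of all genes tested. *Npc1* (0.39, exact permutation p = 0.0286), *Scap* (0.27, exact permutation p = 0.0286) and the sterol hydroxylase *Cyp27a1* (0.23, exact permutation p = 0.0571) were higher and *Ggps1* (-0.34, exact permutation p = 0.0286) lower in SOD1G93A mice. *Cyp27a1* was not called without the 2 arrays of high microglia score (0.19). At 40 days 2 of 57 were called, beside 3.9% of all genes tested. *Mlxipl* (0.17, exact permutation p = 0.0571) was higher and *Acadl* (-0.25, exact permutation p = 0.0286) lower in SOD1G93A mice. Without normalization within arrays *Mlxipl* was at -0.019.

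**Figure D5:**
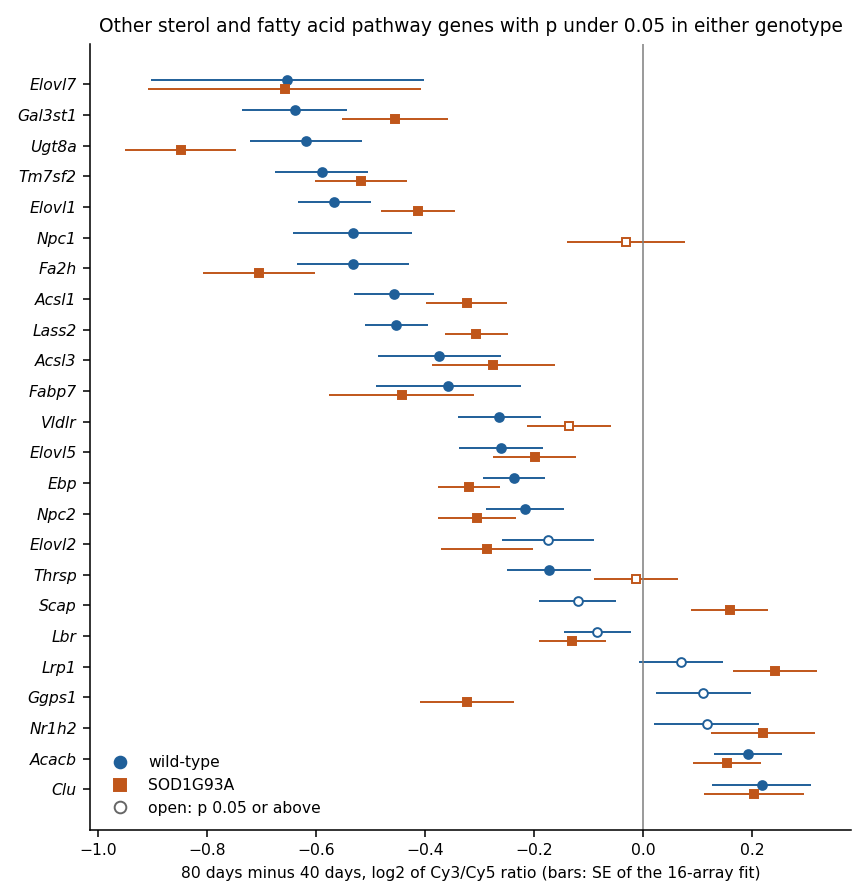
Difference in the log2 ratio, 80 days minus 40 days (horizontal axis), of the 24 other pathway genes with an unadjusted p under 0.05 in either genotype; circles are wild-type, squares SOD1G93A, open symbols have a p of 0.05 or above, and bars are the SE of the fit to 16 arrays. Most genes lie left of 0 in both genotypes, and *Npc1*, *Vldlr* and *Thrsp* are filled for wild-type mice alone.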

How the data were processed

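The 16 raw array files hold spot signals that the authors extracted with Agilent Feature Extraction 9.5.3.1 (per the labels) and deposited as intensity values on a linear scale, not normalized, with local backgrounds and spot flags. In the series matrix the authors deposited log2 values, normalized apart at each age, so this table served only comparisons between genotypes as an alternative. The labels describe the 4 arrays of a group as biological replicates, and arrays of insufficient quality had been removed by the authors.

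Median signals were corrected with normexp (offset 50), after backgrounds more than 20 units above their spot had been set to the median background of the array (at most 81 spots of an array). Ratios of Cy3 to Cy5 were then normalized with limma 3.58.1 in R 4.3.3, using loess for each array and Aquantile across arrays. Tables were read with data.table (1.17.8) and jsonlite (2.0.0), and plots made with Python 3.11.15 and matplotlib 3.10.9. Control and outlier spots were left out and spots of a probe averaged. A probe was tested if well above background in Cy3 on at least 3 arrays of a group and measured on 2 of each, and the brightest tested probe stood for its gene. Dim probes move toward a ratio of 0, which understates their differences.

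Genotypes were compared with lmFit and eBayes on the 8 arrays of an age, and ages and interactions on all 16. Calls were made at a two-sided unadjusted p under 0.05, the threshold of the study, and Benjamini-Hochberg counts were added. Single genes had exact permutation tests (70 relabelings, or 4900 for interactions). An interaction test had been planned for the 33 genes too, but both age differences chose them, so those values are given without p. The script was tested on simulated data. The members, pathway lists and marker lists were chosen with earlier results of these data known, so lists are described by counts and medians. Named were all members, of other pathway genes the 10 largest changes of each contrast with p under 0.05, and the markers that moved with a result. Genes named beyond these (*Acacb*, *Clu*, *Lrp1*, *Nr1h2*, *Vldlr*, *Thrsp*) were picked after their values were seen. Some genes of the pathway list are not reported here, and its counts leave them out. Marker lists of endothelial cells, blood and liver were also scored. Alternatives changed 1 choice at a time, apart from the series matrix, which differs in channel, background and normalization together. They covered background, normalization, filter, probe choice, arrays in the fit, replicate block, and each array left out.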

Additional observations from a re-analysis of the deposited data

Results flagged for a closer look

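Among 132 groups of 4 values of the 33 genes, 6 had a highest or lowest array farther from the others than Dixon's 95% limit, and chance gives about 5% of groups. These were *Ch25h* at 2.00 on wild-type replicate 3 of 80 days, *Fads2* at 1.46 on wild-type replicate 1 of 80 days, *Fasn* at 1.73 on wild-type replicate 4 of 40 days, *Hsd17b7* at 1.64 on SOD1G93A replicate 2 of 40 days, *Idi1* at 1.48 on wild-type replicate 1 of 40 days (the lowest of its group) and *Mvk* at 0.99 on SOD1G93A replicate 4 of 80 days (also the lowest). Of the list scores, 13 of 88 groups of 4 were past the limit. Among these were the microglia score of 0.60 and the oxysterol, export and uptake score of 0.49, both on wild-type replicate 3 of 80 days. The oxysterol score was also past it at 0.88 on SOD1G93A replicate 4 of 80 days, and the fatty acid score at 0.31 on wild-type replicate 4 of 40 days. The score of *Srebf1*, *Srebf2*, *Insig1* and *Stard4* was 0.067 on SOD1G93A replicate 1 of 40 days, -0.28 on SOD1G93A replicate 3 of 80 days and -0.18 on wild-type replicate 3 of 80 days. The liver score was 0.79 on SOD1G93A replicate 4 of 40 days and the neuron score -0.16 on wild-type replicate 3 of 40 days. On wild-type replicate 4 of 40 days members outside the sterol enzymes scored 0.12 and other fatty acid pathway genes 0.049. Fat and endothelial markers scored -0.20 and -0.21 on SOD1G93A replicate 3 of 80 days.

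An interaction between genotype and age was called by limma at an unadjusted p under 0.05 for *Npc1* (0.50), *Scap* (0.28) and *Ggps1* (-0.43). None of these passed Benjamini-Hochberg adjustment over all probes. They were 3 of 57 other pathway genes, or 5.26%, beside 5.81% of all genes tested, so the list held no larger share of calls than the array. *Npc1* kept its call under all 31 alternatives. *Scap* and *Ggps1* each lost it under 1 of 31, and the *Ggps1* value ran from -0.68 to -0.14.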

How the results depend on the processing

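Medians of the age difference kept their sign under all alternatives run, and *Fasn* its call at 80 days. Without normalization within arrays, which moved the median of all genes to -0.11 (age, wild-type), 0.09 (age, SOD1G93A), -0.13 and 0.09 (genotype at 40 and 80 days) and 0.21 (interaction), the medians of the 33 genes were -0.33 in wild-type and -0.14 in SOD1G93A mice. The sterol median was then -0.25 and 8 genes did not overlap in SOD1G93A mice. At 40 days 3 genes were then called (all lower), beside 6.55% of all genes tested, and at 80 days 9, beside 10.1%. Of other pathway genes 13 were then called with age in SOD1G93A mice (7 higher, 6 lower), 22 in wild-type mice (0 higher) and 16 for the interaction. The shares of all genes tested were 14.1%, 19% and 20.8% in the same order. *Acat2* (-0.016) and *Mlxipl* (-0.019) reversed there, as did *Fa2h* in wild-type mice with processed signals (0.0046) and *Fads2* in SOD1G93A mice in Cy3 alone (-0.0026), and the cause was not tested. Processed signals, under which all genes shifted by 0.10 at 40 days, also gave SOD1G93A medians of -0.30 and -0.48 (sterol) and 2 calls at 40 days. For other pathway genes they gave a split of 1 higher to 19 lower with age in SOD1G93A mice and 7 interactions. Of all genes tested, 12.5% were then called at 40 days, 17.9% with age in SOD1G93A mice and 10.1% for the interaction. Without the reset of bright backgrounds the SOD1G93A median was -0.18 with 9 genes not overlapping. At 80 days 1 gene was then called, beside 5.36% of all genes tested. Cy3 alone gave a median of -0.20, 2 calls at 80 days and a split of 2 to 16. The shares of all genes tested were then 4.98% at 80 days and 12.7% with age in SOD1G93A mice. At 40 days there were 2 calls without the filter, 3 with the mean over probes (sterol median -0.29 in SOD1G93A mice), 2 with array weights (and 8 interactions of other pathway genes) and 2 from the series matrix. The shares of all genes tested at 40 days were 4.26%, 4.17%, 6% and 2.42% in the same order. With array weights 8.09% of all genes tested had a called interaction. With the spread from other arrays 0 were called at 40 and 2 at 80 days, beside 3.77% and 8.24% of all genes tested. The 2 arrays of high microglia score were chosen after seeing the data. Without them, of other pathway genes, 6 had a called interaction, and with age in wild-type mice 4 were higher and 14 lower. The shares of all genes tested were then 7.01% for the interaction and 14.6% with age in wild-type mice.

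With the replicate block, which is also the slide, 2 genes were called at 40 days, beside 3.93% of all genes tested. Samples of 1 slide did not deviate together (median r across genes 0.0027, from -0.14 to 0.23 over 24 pairs), so replicate numbers were not taken as pairs.

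With single arrays left out, calls ran from 1 to 3 at 40 days, 1 to 5 at 80 days and 3 to 7 for the interaction of other pathway genes. Medians of the 33 genes ran from -0.27 to -0.15 in wild-type and -0.28 to -0.20 in SOD1G93A mice, sterol medians from -0.50 to -0.35 and -0.45 to -0.35, genes without overlap from 11 to 14 and 14 to 15, and other pathway genes called from 15 to 21 and 16 to 22. Over all alternatives, age differences of single members changed sign in 44 of 1386 values, which belonged to 15 of the 66 differences. Of the 44, 2 belonged to a difference larger than the spread between replicates (*Acat2* and *Fads2* above), and the others to differences of at most 0.15 in size. Besides these 2, 38 values moved by more than that spread. Signal over background limits *Ch25h* at 40 days, and 4 arrays per group limit all tests.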
